A study of Homo sapiens with 12 samples.

Results

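The BCL2 family of apoptosis regulators was examined in MV4-11 cells, a human acute myeloid leukemia line that carries FLT3-ITD, through 10 genes fixed by symbol. They are 4 anti-apoptotic genes (BCL2, MCL1, BCL2L1 and BCL2A1), the 2 effector genes BAX and BAK1, and 4 BH3-only genes (BBC3, PMAIP1, BCL2L11 and BID), out of 43876 genes in the table. Each symbol matched 1 Ensembl identifier. RNA was sequenced from 12 libraries, 3 for each of 4 conditions, after 24 h in culture. The control cells received DMSO. Mito-Lipo cells received 20 nM of the topoisomerase II poison mitoxantrone, which the sample labels name as mitoxantrone and the study as its liposome. Gilteritinib cells received the FLT3 inhibitor gilteritinib at 25 nM. Com cells received both drugs at 20 nM each, so the gilteritinib dose was not the same alone and in combination. All 4 conditions share the line, whose genotype the labels give only as wild type. No source used here says whether the 3 libraries of a condition were separate cultures, so the p-values measure only the spread between these libraries, which may be technical.

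The proteins of this family decide whether the outer membrane of the mitochondrion is opened. BAX and BAK1 form the pores, the anti-apoptotic proteins hold them and their activators in check, and the BH3-only proteins, switched on by stress, lift that restraint or activate BAX and BAK1 directly. Myeloid leukemia cells are known for their reliance on BCL2 and MCL1, and the BH3-only genes are textbook points of entry for DNA damage and for loss of growth factor signaling. Much of the family is also controlled at the protein level, which RNA does not show.

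Promoter stretches of 4 genes are shown: the BH3-only genes BCL2L11, PMAIP1 and BBC3, whose values differ from library to library in unlike ways, and the effector BAX. The stretches come from RefSeq (GRCh38.p14), where 9 of the 10 genes were found. MCL1 had no entry there, so none is shown for it. Each stretch ends at the last base before the annotated first exon. The capitals mark matches to a FOXO core, GTAAACA, in BCL2L11, to a cAMP response element half-site, ACGTCA, in PMAIP1 and to an E-box, CACGTG, in BAX and BBC3. The BCL2L11 stretch is chr2:111120664-111120913 on the plus strand, which precedes the first exon of most isoforms and lies in an intron of an isoform that starts further upstream. The PMAIP1 stretch is chr18:59899746-59899947 on the plus strand, the BAX stretch is chr19:48954625-48954814 on the plus strand, and the BBC3 stretch is chr19:47232767-47232917 on the minus strand.
BCL2L11: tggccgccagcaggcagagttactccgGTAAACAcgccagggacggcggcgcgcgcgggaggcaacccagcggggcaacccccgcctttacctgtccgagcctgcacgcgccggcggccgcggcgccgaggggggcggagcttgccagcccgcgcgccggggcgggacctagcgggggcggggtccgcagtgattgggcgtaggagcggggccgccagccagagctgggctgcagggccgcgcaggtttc
PMAIP1: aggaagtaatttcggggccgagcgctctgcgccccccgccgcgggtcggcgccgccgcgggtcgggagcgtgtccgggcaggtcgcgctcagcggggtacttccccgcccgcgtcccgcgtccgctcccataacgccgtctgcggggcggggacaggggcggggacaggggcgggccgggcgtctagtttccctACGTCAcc
BAX: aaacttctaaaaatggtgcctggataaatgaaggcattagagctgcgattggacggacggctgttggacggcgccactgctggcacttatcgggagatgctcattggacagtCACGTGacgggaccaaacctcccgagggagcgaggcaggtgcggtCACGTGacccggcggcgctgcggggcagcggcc
BBC3: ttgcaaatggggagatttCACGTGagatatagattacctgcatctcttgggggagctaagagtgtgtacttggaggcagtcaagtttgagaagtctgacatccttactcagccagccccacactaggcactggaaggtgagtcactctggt

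Of the 27305 promoter windows in that table, searched on both strands from 250 bases before to 50 bases after the start, 3.41% held GTAAACA, 8.32% held ACGTCA and 7.43% held CACGTG. Among the 9 members, GTAAACA was found only in BCL2L11, ACGTCA only in PMAIP1, and CACGTG only in BAX and BBC3. The BAX window holds 2 more CACGTG matches that are not in the printed stretch. A STAT core, TTCNNNGAA, was found only in BCL2A1 among the members and in 7.88% of all windows. These matches are descriptions of letters, and a window without a match says only that those letters are not in it.

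All values are FPKM, fragments scaled to transcript length and to library depth, as deposited, so levels can be set side by side between genes. Library depth, recovered from the steps between low values, was 31721600 to 41330000 fragments. The myeloid markers FLT3 (132 to 171 FPKM), SPI1 (59.8 to 108 FPKM), CD33 (17.9 to 27.6 FPKM) and LYZ (490.4 to 1333 FPKM) were present in every library, while MPO was at 1.55 to 2.66 FPKM and CD68 was at or under 0.196 FPKM. The T cell genes CD3D and CD3E and the fibroblast gene DCN were at or under 0.0707 FPKM. The most abundant gene in every library was the noncoding RN7SL1, with 5.98% to 13.4% of the summed FPKM. The libraries of replicate number 1 stood apart in all 4 conditions, and the first principal component, which separated them from numbers 2 and 3, held 41.9% of the variance. Results are therefore also given without them.

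BCL2 was the most abundant member, followed by BAX and MCL1. Over the 12 libraries the mean level was 93.2 FPKM for BCL2 (SD 6.46), 71.2 FPKM for BAX (SD 10.8) and 59.2 FPKM for MCL1 (SD 7.03). Library ranges of BCL2 and BAX overlapped, and so did those of BAX and MCL1. BID (25.0 FPKM, SD 1.83), BCL2L11 (16.8 FPKM, SD 3.94), PMAIP1 (14.1 FPKM, SD 2.90) and BAK1 (11.5 FPKM, SD 0.542) came next. They lay below every library of MCL1, and each overlapped the range of its neighbor in this order. BBC3 (5.66 FPKM, SD 2.24), BCL2L1 (3.53 FPKM, SD 0.534) and BCL2A1 (0.442 FPKM, SD 0.515) were the lowest, and the ranges of BCL2L1 and BCL2A1 did not overlap. Relative spread over the 12 libraries was narrowest for BAK1, with a coefficient of variation of 4.72%, and, BCL2A1 aside, widest for BBC3, with 39.6%.

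**Figure D1:**
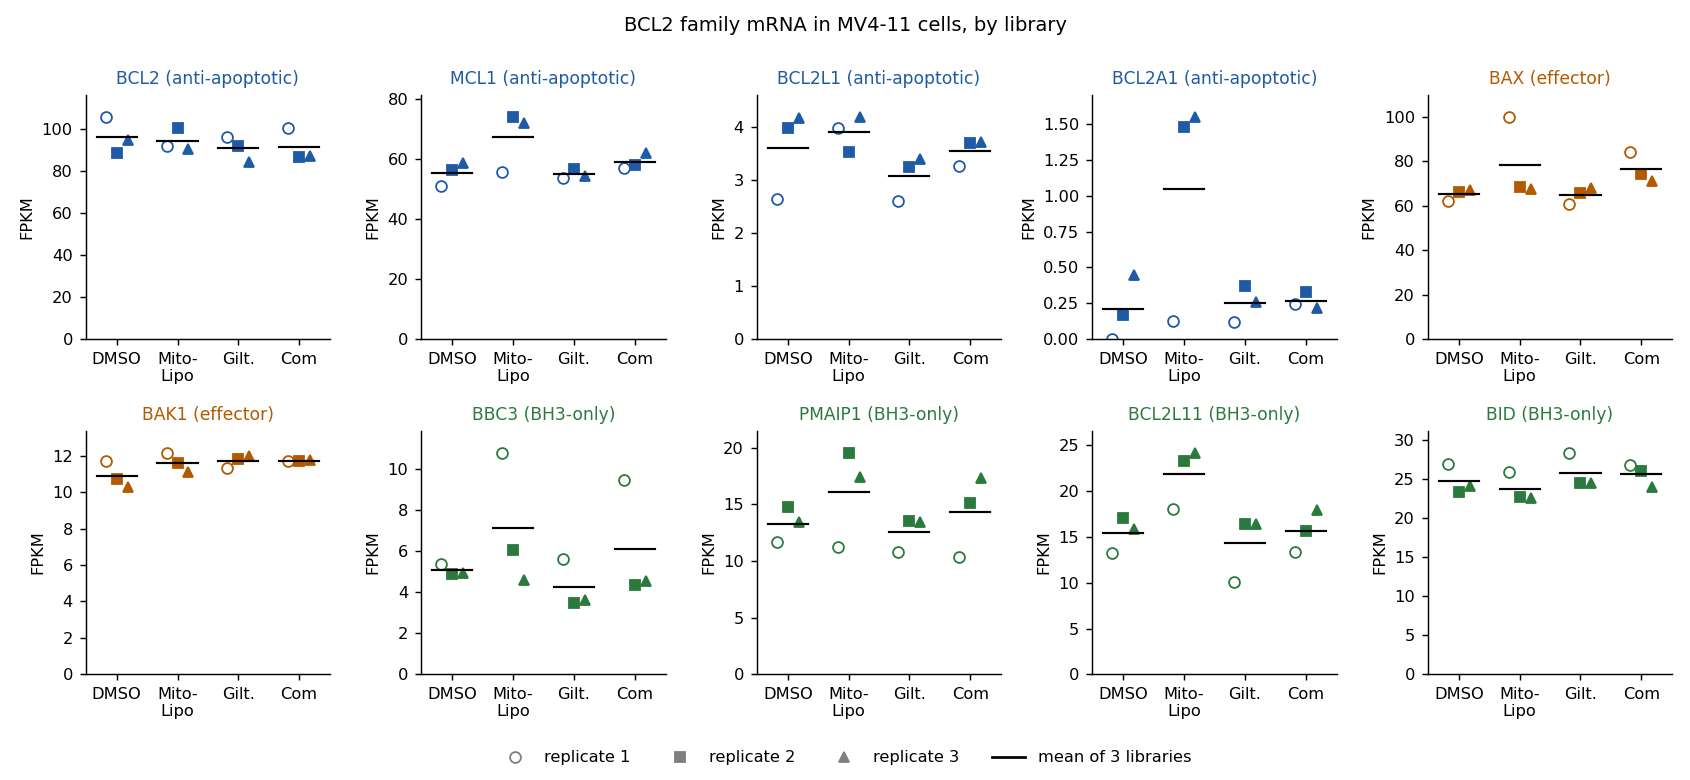
FPKM of each of the 10 genes (y axis, from 0) in the 12 libraries, by condition (x axis), with a symbol for each replicate number and a line at the mean of 3 libraries. BCL2L11 was higher in the 3 Mito-Lipo libraries than in the other 9, and the highest values of BAX and BBC3 lie in replicate 1 of Mito-Lipo and Com.

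No member differed between conditions at an adjusted p under 0.05 when all 12 libraries entered the limma fit. Of the 10 members, 9 passed the filter on low values and BCL2A1 did not. Across all 18574 genes tested, the share past that threshold was 0.00538% in Com against DMSO, a single gene that is no member, and 0% in each of the other 5 comparisons and in the interaction of the drugs. Log2 differences are those of FPKM + 1. At an unadjusted p under 0.05, 2 of the 9 members passed in Mito-Lipo against DMSO (7.9% of all genes), 0 in Gilteritinib against DMSO (1.86%), 0 in Com against DMSO (1.67%), 0 in Com against Gilteritinib (1.63%), 1 in Com against Mito-Lipo (5.53%), 2 in Gilteritinib against Mito-Lipo (9.52%) and 0 in the interaction (2.91%). Only MCL1 and BCL2L11 made up those counts. The Mito-Lipo against DMSO count was 0 without replicate 1 of DMSO and 0 with median-ratio scaling. Under that scaling the count was also 0 in Com against Mito-Lipo and 1 in Gilteritinib against Mito-Lipo. That 1 was BID (limma unadjusted p = 0.0183), while neither MCL1 nor BCL2L11 was under 0.05 in any of these comparisons. The Com against Mito-Lipo count was 0 also without replicate 2 or 3 of Mito-Lipo and without replicate 1 or 2 of Com. With replicate number as a block, the counts rose to 1 in Com against Gilteritinib (4.39% of all genes), 2 in Com against Mito-Lipo (12.2%), 6 in Gilteritinib against Mito-Lipo (18%) and 1 in the interaction (7.4%), again with no adjusted p under 0.05. The libraries of the compared conditions did not overlap for 2 of 9 members in Mito-Lipo against DMSO (13.6% of all genes), 0 in Gilteritinib against DMSO (6.57%), 1 in Com against DMSO (5.73%), 2 in Com against Gilteritinib (6.2%), 1 in Com against Mito-Lipo (9.34%) and 2 in Gilteritinib against Mito-Lipo (14.4%). RNA from bulk cultures cannot tell fewer cells of a kind from less RNA per cell.

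The anti-apoptotic genes come first. BCL2 binds BH3-only proteins and is the target of venetoclax. It was at 106, 88.4 and 94.97 FPKM in DMSO, 91.7, 100.4 and 90.6 FPKM in Mito-Lipo, 96.4, 92.1 and 84.4 FPKM in Gilteritinib, and 100.4, 86.8 and 87.1 FPKM in Com, in the order of replicates 1, 2 and 3. The 4 conditions overlapped.

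MCL1, a short-lived anti-apoptotic protein, had its 2 highest values in Mito-Lipo. It was at 51.1, 56.3 and 58.8 FPKM in DMSO, 55.9, 74.0 and 72.2 FPKM in Mito-Lipo, 53.8, 56.8 and 54.6 FPKM in Gilteritinib, and 57.1, 58.0 and 62.0 FPKM in Com. Replicates 2 and 3 of Mito-Lipo lay above every other library, whereas replicate 1 lay inside the DMSO range. The log2 difference from DMSO was 0.27 (SE 0.10, limma adjusted p = 0.564), and each Mito-Lipo library was above the DMSO library of its own number, by 0.13, 0.39 and 0.29. Gilteritinib was below Mito-Lipo (log2 difference -0.28, SE 0.10, limma adjusted p = 0.42). Com was also lower than Mito-Lipo (log2 difference -0.18, SE 0.10, limma adjusted p = 0.936). The Com libraries were above those of Gilteritinib without overlap, with a log2 difference of 0.10 (SE 0.10, limma adjusted p = 0.9999).

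BCL2L1, which encodes BCL-XL, was expressed at a low level. It was at 2.64, 3.98 and 4.17 FPKM in DMSO, 3.99, 3.52 and 4.18 FPKM in Mito-Lipo, 2.60, 3.25 and 3.40 FPKM in Gilteritinib, and 3.26, 3.69 and 3.71 FPKM in Com. The Gilteritinib libraries were below those of Mito-Lipo without overlap (log2 difference -0.27, SE 0.14, limma adjusted p = 0.62), but both overlapped DMSO. The annotated exons of BCL2L1 share 43.0% of their bases with ABALON on the opposite strand, and the strand setting of the counting is not given in the sources used here, so reads of the 2 genes cannot be told apart.

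BCL2A1, a target of NF-kappaB signaling in blood cells, was listed near 0. It had 0, 5 and 12 fragments in DMSO, 4, 38 and 50 in Mito-Lipo, 4, 11 and 8 in Gilteritinib, and 7, 9 and 6 in Com. The count of 0 allows up to 3 fragments, for counting error only. Replicates 2 and 3 of Mito-Lipo, at 1.48 and 1.55 FPKM, were the only libraries above 0.450 FPKM, while replicate 1 of Mito-Lipo was at 0.123 FPKM. Without the filter, the log2 difference from DMSO was 0.69 (SE 0.28, limma adjusted p = 0.686).

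The effectors differed between the 2 genes. BAX was at 62.2, 66.3 and 66.9 FPKM in DMSO, 99.7, 68.3 and 67.5 FPKM in Mito-Lipo, 60.7, 65.8 and 67.8 FPKM in Gilteritinib, and 84.4, 74.2 and 70.9 FPKM in Com. All 3 Com libraries were above all 6 DMSO and Gilteritinib libraries, and all 3 Mito-Lipo libraries were above DMSO, yet most of the Mito-Lipo difference lay in replicate 1. The Mito-Lipo library of number 1 was 1.60 times the DMSO library of its number, against 1.03 and 1.01 times for numbers 2 and 3. The corresponding ratios for Com were 1.36, 1.12 and 1.06. The log2 difference from DMSO was 0.24 (SE 0.13, limma adjusted p = 0.713) for Mito-Lipo, and without replicate 1 of Mito-Lipo it was 0.06. For Com it was 0.23 against DMSO (SE 0.13, limma adjusted p = 1) and 0.23 against Gilteritinib (SE 0.13, limma adjusted p = 0.9999).

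BAK1, the other pore-forming effector, stayed within a narrow range. Its means were 10.9 FPKM (SD 0.724, n = 3) in DMSO, 11.6 FPKM (SD 0.533, n = 3) in Mito-Lipo, 11.7 FPKM (SD 0.342, n = 3) in Gilteritinib and 11.7 FPKM (SD 0.041, n = 3) in Com, and all 12 libraries lay between 10.3 and 12.2 FPKM. The counting error of a library was about 0.375 FPKM for BAK1 in DMSO, beside SDs between libraries of 0.041 to 0.724 FPKM over the 4 conditions.

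The 4 BH3-only genes had unlike patterns. BCL2L11 encodes BIM, which binds all anti-apoptotic members and is kept low by growth factor signaling through ERK and AKT. It was at 13.2, 17.1 and 15.9 FPKM in DMSO, 18.1, 23.2 and 24.1 FPKM in Mito-Lipo, 10.03, 16.4 and 16.4 FPKM in Gilteritinib, and 13.4, 15.6 and 17.9 FPKM in Com. Every Mito-Lipo library was above each of the other 9 libraries, and Com overlapped DMSO. Within the replicate numbers, Mito-Lipo was 1.37, 1.36 and 1.52 times DMSO, and Com was 1.01, 0.916 and 1.13 times DMSO. The log2 difference between Mito-Lipo and DMSO was 0.47 (SE 0.19, limma adjusted p = 0.579), and that between Com and Mito-Lipo was -0.45 (SE 0.19, limma adjusted p = 0.891). Between Gilteritinib and Mito-Lipo it was -0.60 (SE 0.19, limma adjusted p = 0.342). With replicate number as a block, the SE of each of these differences was 0.09. The limma adjusted p were then 0.0998, 0.14 and 0.0554 in the same order, none under 0.05. The interaction is the difference of Com from Gilteritinib less that of Mito-Lipo from DMSO. It also holds the unlike gilteritinib doses, 20 nM in Com and 25 nM alone. Its value was -0.33 with a 95% interval of -0.91 to 0.26. With replicate number as a block the interval was -0.61 to -0.05 (limma adjusted p = 0.603), and over replicates 2 and 3 only the interaction was -0.47 (limma adjusted p = 0.0685). Annotated exons of BCL2L11 share 10.9% of their bases with MIR4435-2HG on the opposite strand.

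BBC3 encodes PUMA, a BH3-only protein of the DNA damage response. It was at 5.38, 4.90 and 4.96 FPKM in DMSO, 10.8, 6.04 and 4.62 FPKM in Mito-Lipo, 5.65, 3.47 and 3.64 FPKM in Gilteritinib, and 9.49, 4.35 and 4.57 FPKM in Com. Replicate 1 of Mito-Lipo and of Com held the highest 2 values, and the other 4 libraries of those conditions lay between 4.35 and 6.04 FPKM. Within replicate number 1, Mito-Lipo was 2.01 times and Com 1.76 times the DMSO library, whereas the ratios within numbers 2 and 3 were 1.23 and 0.932 for Mito-Lipo and 0.888 and 0.920 for Com. The log2 difference of Gilteritinib from Mito-Lipo was -0.59 (SE 0.30, limma adjusted p = 0.603), and that of Com from Gilteritinib was 0.39 (SE 0.30, limma adjusted p = 0.9999). Without replicate 1 of Com the latter was 0.08, and without replicate 1 of Mito-Lipo the former was -0.28.

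PMAIP1 encodes NOXA, a BH3-only protein that binds MCL1. It was at 11.7, 14.8 and 13.4 FPKM in DMSO, 11.2, 19.5 and 17.4 FPKM in Mito-Lipo, 10.8, 13.5 and 13.4 FPKM in Gilteritinib, and 10.4, 15.1 and 17.4 FPKM in Com. Its highest values were in replicates 2 and 3 of Mito-Lipo and replicate 3 of Com, whereas those of BBC3 were in replicate 1. Gilteritinib differed from Mito-Lipo by a log2 difference of -0.30 (SE 0.21, limma adjusted p = 0.726).

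BID links death receptors and caspase-8 to the mitochondrion. It was at 27.0, 23.4 and 24.1 FPKM in DMSO, 25.9, 22.7 and 22.6 FPKM in Mito-Lipo, 28.4, 24.5 and 24.5 FPKM in Gilteritinib, and 26.9, 26.1 and 24.0 FPKM in Com. All conditions overlapped, and the log2 difference of Gilteritinib from Mito-Lipo was 0.11 (SE 0.09, limma adjusted p = 0.75). The remaining 39 pairs of a member and a comparison had log2 differences from -0.25 to 0.35.

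Without the 4 libraries of replicate 1, some members passed the threshold. In the limma fit over the 8 libraries of numbers 2 and 3, 2 of 9 members were called in Mito-Lipo against DMSO (6.41% of all genes). MCL1 was higher by 0.34 on the log2 scale (SE 0.05, adjusted p = 0.0118) and BCL2L11 by 0.50 (SE 0.07, adjusted p = 0.0133). The same 2 genes were called in Com against Mito-Lipo (6.13% of all genes), with log2 differences of -0.28 for MCL1 (adjusted p = 0.023) and -0.48 for BCL2L11 (adjusted p = 0.0169). In Gilteritinib against Mito-Lipo, 3 members were called (6.63% of all genes), with log2 differences of -0.39 for MCL1 (adjusted p = 0.00926), -0.42 for PMAIP1 (adjusted p = 0.0428) and -0.50 for BCL2L11 (adjusted p = 0.0145). No member was called in Gilteritinib against DMSO (0.614% of all genes), Com against DMSO (0.0485%) or Com against Gilteritinib (0.0754%). These 3 comparisons with calls share the Mito-Lipo libraries, so they are not separate evidence. Each condition held 2 libraries in that fit. BAX and BBC3, the genes with the highest values in replicate 1, differed from DMSO in Mito-Lipo by 0.03 (SE 0.03) and 0.09 (SE 0.11) over these libraries.

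**Figure D2:**
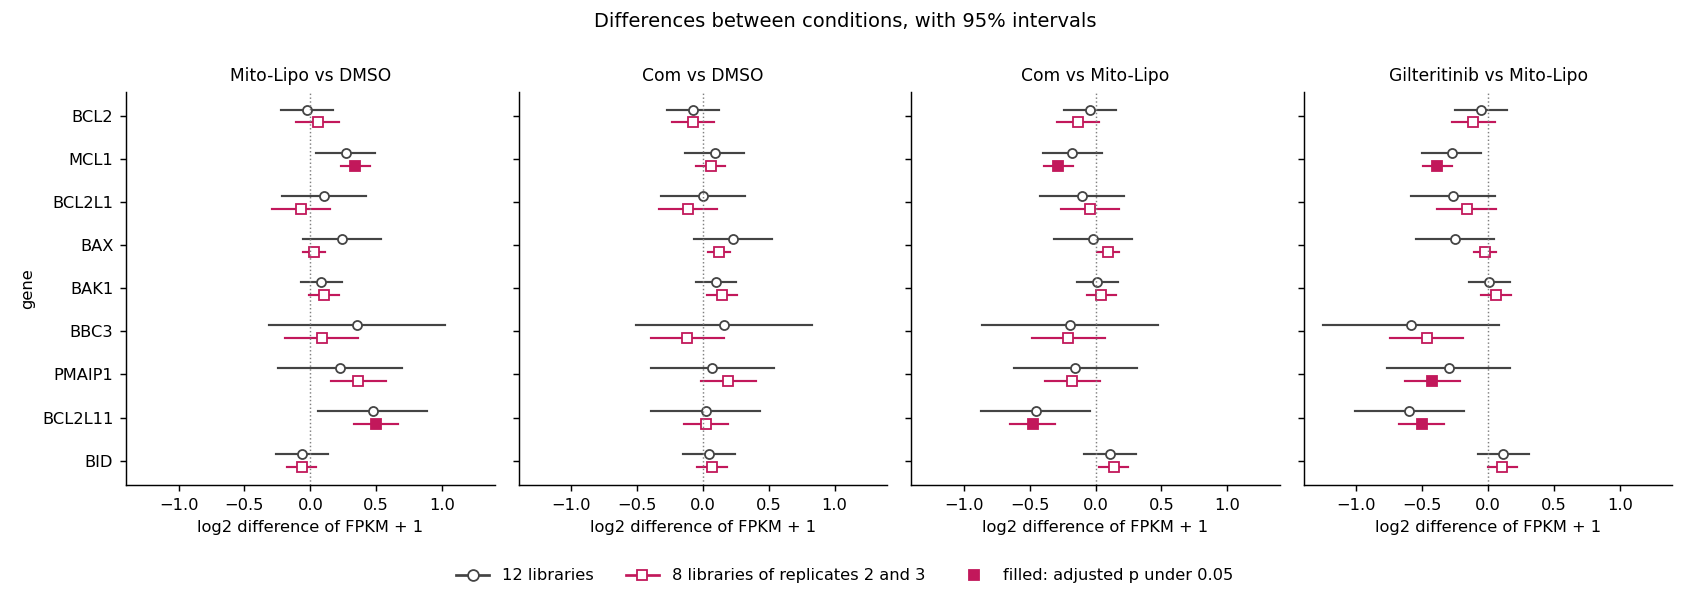
Log2 difference of FPKM + 1 (x axis) with its 95% interval for the 9 genes tested (y axis) in 4 comparisons, over all 12 libraries (circles) and over the 8 libraries of replicates 2 and 3 (squares), filled where the adjusted p was under 0.05. No circle is filled, and the filled squares are MCL1 and BCL2L11 in the 3 comparisons with Mito-Lipo and PMAIP1 in Gilteritinib against Mito-Lipo.

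Replicate 1 was also set against replicates 2 and 3. That split was chosen because these same libraries separate that way, so its p-values describe the split and do not test it. The counts are not comparable with those between conditions, as the groups differ in size and in covariates. With condition as a covariate, 5 of 9 members differed between replicate 1 and replicates 2 and 3 at an adjusted p under 0.05, and 4 of these are the BH3-only genes. BBC3 was higher in replicate 1 by 0.63 on the log2 scale (SE 0.12, limma adjusted p = 0.00388) and BID by 0.17 (SE 0.03, limma adjusted p = 0.00466). PMAIP1 (-0.45, SE 0.08), BCL2L11 (-0.41, SE 0.06) and MCL1 (-0.17, SE 0.05) were lower, with limma adjusted p of 0.00176, 0.00113 and 0.0297. Of all genes, 26.9% were higher and 12.7% lower in replicate 1, so 2 higher and 3 lower among 9 members are to be read against those shares. With median-ratio scaling between libraries the split of all genes turned from 4991 higher and 2364 lower to 2816 higher and 3959 lower. Under that scaling BBC3 remained higher (0.52, adjusted p = 0.0066) and PMAIP1 (-0.57), BCL2L11 (-0.52) and MCL1 (-0.29) remained lower, BID was no longer called (0.05, adjusted p = 0.471), and BCL2L1 was called lower (-0.31, adjusted p = 0.0176). What distinguishes replicate 1 was not tested. In number 1 the ratio of BBC3 to PMAIP1 was 0.459 in DMSO, 0.962 in Mito-Lipo, 0.523 in Gilteritinib and 0.916 in Com, and in numbers 2 and 3 it was between 0.257 and 0.369 in all 4 conditions.

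**Figure D3:**
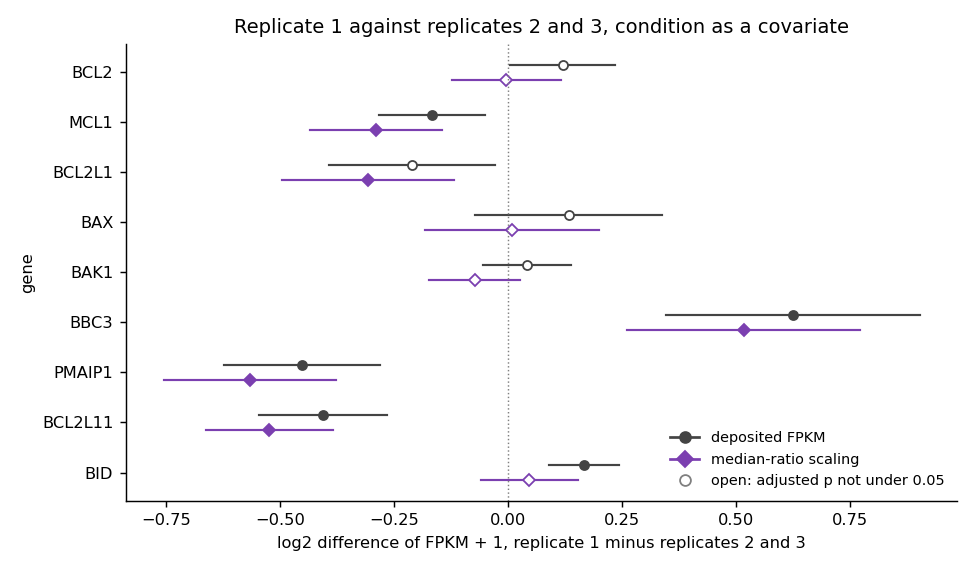
Log2 difference of FPKM + 1 between replicate 1 and replicates 2 and 3 (x axis) with its 95% interval for the 9 genes tested, as deposited (circles) and after median-ratio scaling (diamonds), filled where the adjusted p was under 0.05. BBC3 lies to the right, PMAIP1, BCL2L11 and MCL1 lie to the left under both scalings, and the interval of BID reaches 0 under median-ratio scaling.

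Summed over their members, the anti-apoptotic genes had the highest level in every library, then the effectors, then the BH3-only genes. The anti-apoptotic sum was 156 FPKM in DMSO (SD 5.72, n = 3), 167 FPKM in Mito-Lipo (SD 14.0, n = 3), 149 FPKM in Gilteritinib (SD 5.84, n = 3) and 154 FPKM in Com (SD 6.21, n = 3). BCL2 alone held 27.8% to 36.3% of the summed FPKM of all 10 members. The BH3-only sum was 58.6 FPKM in DMSO (SD 1.44, n = 3), 68.8 FPKM in Mito-Lipo (SD 2.79, n = 3), 56.9 FPKM in Gilteritinib (SD 1.76, n = 3) and 61.7 FPKM in Com (SD 1.88, n = 3). Every Mito-Lipo library had a higher BH3-only sum, at 66.0 FPKM or more, than every other library, at 63.8 FPKM or less. Relative to the anti-apoptotic sum, which was also high in Mito-Lipo replicates 2 and 3, the BH3-only sum was 0.377 in DMSO (SD 0.0233), 0.414 in Mito-Lipo (SD 0.0189), 0.382 in Gilteritinib (SD 0.0238) and 0.401 in Com (SD 0.0237). The libraries of the conditions overlapped on this ratio, with 0.404 for the highest of DMSO and 0.399 for the lowest of Mito-Lipo.

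The ratio of the effector sum to the anti-apoptotic sum was 0.489 in DMSO (SD 0.0267), 0.550 in Mito-Lipo (SD 0.163), 0.513 in Gilteritinib (SD 0.0442) and 0.572 in Com (SD 0.0289). All 3 Com libraries, at 0.540 to 0.597, were above all 3 DMSO libraries, at 0.464 to 0.517, but they overlapped Gilteritinib, and in Mito-Lipo the ratio was 0.737 in replicate 1 and 0.445 and 0.466 in the others. The ratio of BAX to BCL2 was 0.837 in Com (SD 0.0209), 0.716 in Gilteritinib (SD 0.0866) and 0.681 in DMSO (SD 0.0826), with all Com libraries above all of DMSO and Gilteritinib. In Mito-Lipo it was 1.09 in replicate 1 and 0.680 and 0.745 in the others. The ratio of BCL2L11 to MCL1 was 0.264 in Com, 0.259 in Gilteritinib, 0.277 in DMSO and 0.324 in Mito-Lipo. Com overlapped DMSO on it, and all Mito-Lipo libraries, at 0.314 or more, were above every other library, at 0.303 or less. Since the members were chosen with results known, these ratios are given without a test. With each class as the mean of log2(FPKM + 1), effectors stood above the anti-apoptotic genes, and both class ratios turned from higher to lower in Mito-Lipo relative to DMSO. On that scale the log2 ratio for effectors was 1.0005 in Mito-Lipo (SD 0.41) and 1.09 in DMSO (SD 0.153). For BH3-only genes it was 0.0632 (SD 0.24) and 0.0743 (SD 0.12), so both differences lay within the SDs. The anti-apoptotic mean includes BCL2A1, which was near 0 and did not pass the filter. Its log2 difference from DMSO, 0.69, was the largest of that class, beside 0.27 for MCL1, and the ratios without it were not computed. By class, the median log2 difference between Mito-Lipo and DMSO was 0.11 over 3 anti-apoptotic genes, 0.16 over 2 effectors and 0.29 over 4 BH3-only genes, beside 0.03 over all genes tested. The ranges of the classes overlapped, at -0.03 to 0.27, 0.08 to 0.24 and -0.06 to 0.47 in the same order. BCL2A1 did not enter the anti-apoptotic median.

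**Figure D4:**
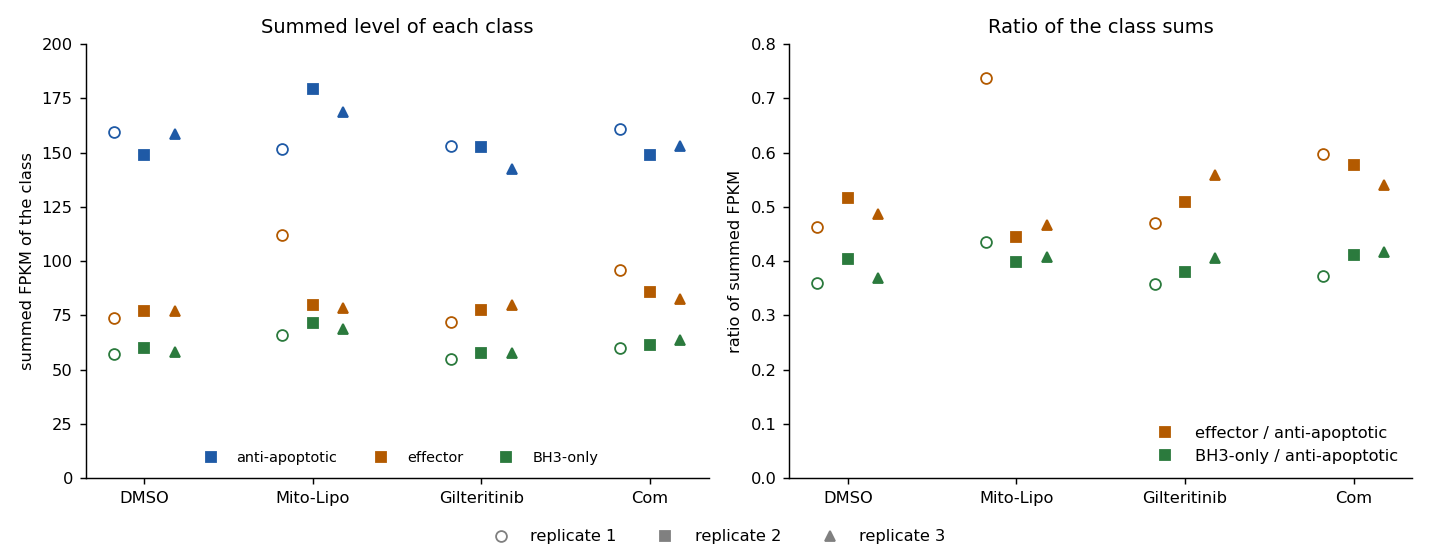
Left, summed FPKM of the anti-apoptotic, effector and BH3-only genes, and right, the ratio of the effector and BH3-only sums to the anti-apoptotic sum (y axes, from 0), in the 12 libraries by condition, with a symbol for each replicate number. The BH3-only sum is highest in the 3 Mito-Lipo libraries, and the effector ratio of replicate 1 of Mito-Lipo, at 0.737, stands above the rest.

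The wider pathway was read from lists of 58 genes, of which 57 were in the table and 51 passed the filter. None had an adjusted p under 0.05 in the 6 comparisons or the interaction in the limma fit over 12 libraries, and at an unadjusted p under 0.05 there were 5 in Mito-Lipo against DMSO (7.9% of all genes), 0 in Gilteritinib against DMSO (1.86%), 2 in Com against DMSO (1.67%), 1 in Com against Gilteritinib (1.63%), 4 in Com against Mito-Lipo (5.53%), 8 in Gilteritinib against Mito-Lipo (9.52%) and 1 in the interaction (2.91%). Between replicate 1 and the others, 13 were higher and 11 lower, beside 26.9% and 12.7% of all genes, a split that turned with median-ratio scaling. Over replicates 2 and 3 only, 13 of the 51 were called in Mito-Lipo against DMSO, 5 higher and 8 lower, beside 6.41% of all genes. The higher ones were BNIP3, BNIP3L, TNFRSF10B, MDM2 and DDIT3, and the lower ones were BIK, BCL2L10, BCL2L12, APAF1, PARP1, ENDOG, FADD and BIRC5. The counts were 3 in Gilteritinib against DMSO (0.614%), 1 in Com against DMSO (0.0485%), 0 in Com against Gilteritinib (0.0754%), 13 in Com against Mito-Lipo (6.13%), 11 in Gilteritinib against Mito-Lipo (6.63%) and 8 in the interaction (2.97%). Of the other BCL2 family genes, 9 of 12 in the table were tested. BNIP3, a mitochondrial BH3-like gene induced by hypoxia, was at 7.25, 8.59 and 7.99 FPKM in DMSO, 7.67, 13.5 and 13.5 FPKM in Mito-Lipo and between 6.62 and 7.39 FPKM in the 6 libraries with gilteritinib. As with MCL1 and BCL2A1, its high values were replicates 2 and 3 of Mito-Lipo, and over those numbers it was called (log2 difference from DMSO 0.64, limma adjusted p = 0.00311), which it was not over the 12 libraries (0.45, limma adjusted p = 0.56). BCL2L2, an anti-apoptotic relative, was at 6.13 to 8.47 FPKM in all libraries.

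Among the upstream factors, 10 of 11 were tested. MDM2, a ubiquitin ligase gene, was at 32.3, 20.6 and 21.1 FPKM in DMSO, 82.8, 27.2 and 26.8 FPKM in Mito-Lipo, 34.4, 23.4 and 22.8 FPKM in Gilteritinib, and 80.3, 28.6 and 30.6 FPKM in Com. Mito-Lipo and Com libraries were thus above DMSO within each number, most of all in number 1, where BAX and BBC3 also had their highest values. Over replicates 2 and 3 only, MDM2 was called higher in Mito-Lipo (log2 difference 0.36, limma adjusted p = 0.00875) and in Com (0.48, limma adjusted p = 0.0474) than in DMSO.

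All 8 death receptor and adaptor genes were tested. TNFRSF10B, the TRAIL receptor DR5, was at 27.9, 27.0 and 25.9 FPKM in DMSO, 51.7, 38.2 and 35.6 FPKM in Mito-Lipo, 29.8, 28.6 and 29.6 FPKM in Gilteritinib, and 46.8, 31.4 and 29.6 FPKM in Com. Mito-Lipo was above DMSO without overlap (log2 difference 0.60, SE 0.17, limma adjusted p = 0.488), and over replicates 2 and 3 only it was called (0.46, limma adjusted p = 0.00666). FADD, the adaptor that recruits caspase-8, was called lower there (-1.18, limma adjusted p = 0.0117, against -0.79 and 0.769 over the 12 libraries), at 2.80 and 2.77 FPKM in DMSO and 0.646 and 0.689 FPKM in Mito-Lipo, whereas in replicate 1 it was at 3.22 and 3.21 FPKM. In replicates 2 and 3 of Gilteritinib FADD was lower still, at 0.191 and 0.402 FPKM, and was also called against DMSO. In those of Com it was at 1.46 and 2.20 FPKM and was not called. FAS was at 4.33 and 3.98 FPKM in replicate 1 of Mito-Lipo and Com and at or under 1.70 FPKM in every other library. Among 16 apoptosome and caspase genes, all tested, ENDOG, a mitochondrial nuclease, was at 16.4, 7.27 and 8.13 FPKM in DMSO and 11.4, 2.12 and 1.55 FPKM in Mito-Lipo. It was at 15.8, 2.16 and 3.02 FPKM in Gilteritinib and 16.1, 3.48 and 4.66 FPKM in Com. Over replicates 2 and 3 ENDOG (log2 difference -1.62, limma adjusted p = 0.00692), PARP1 (-0.24, limma adjusted p = 0.016) and the apoptosome gene APAF1 (-0.20, limma adjusted p = 0.0462) were called lower in Mito-Lipo than in DMSO. Over the 12 libraries the difference of ENDOG was -1.24 (limma adjusted p = 0.761). CASP6 was at 5.79 to 6.25 FPKM in DMSO, 4.46 to 6.04 FPKM in Mito-Lipo, 6.96 to 7.20 FPKM in Gilteritinib and 6.37 to 7.45 FPKM in Com, and the mitochondrial protease HTRA2 was at 7.28 to 10.2 FPKM throughout. Of 6 inhibitors of apoptosis, 4 were tested, and survivin, BIRC5, was lower in every Mito-Lipo library (33.4, 34.1 and 35.3 FPKM) than in DMSO (41.1, 39.7 and 39.0 FPKM) with a log2 difference of -0.21 (SE 0.08, limma adjusted p = 0.526), and it was called over replicates 2 and 3 only (-0.18, limma adjusted p = 0.043), while BIRC2 was at 11.97 to 15.97 FPKM. The ubiquitin system genes HUWE1 and MARCHF5, which act on MCL1, were at 52.2 to 74.0 FPKM and 7.75 to 10.8 FPKM, and none of the 4 genes of that list had an unadjusted p under 0.05 in a comparison of conditions.

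The genes whose pattern was most like that of 4 members were found among 7493 genes by Pearson correlation of log2(FPKM + 1) over the 12 libraries, after the mean of each replicate number was subtracted. For BCL2 they were USP34 (r = 0.956), PAN3 (0.944) and DENND4A (0.930). For MCL1 they were TMCO3 (0.976), TNFAIP3 (0.973), an inhibitor of NF-kappaB signaling, and PHLDA1 (0.972), which was at 28.3 and 28.1 FPKM in replicates 2 and 3 of Mito-Lipo and at or under 12.9 FPKM elsewhere. For BAX they were MAP2K3 (0.9746), the DNA repair gene XPC (0.973) and FDXR (0.968), and for BBC3 they were MMP2 (0.974), PLEC (0.971) and AP5B1 (0.965). FDXR, which encodes ferredoxin reductase, was at 26.8 and 24.8 FPKM in replicate 1 of Mito-Lipo and Com and at or under 10.04 FPKM elsewhere. The genes were picked for the largest r, and the points share library and depth, so these correlations are descriptions.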

How the data were processed

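Total RNA of MV4-11 cells was sequenced in 12 libraries, 3 in each of 4 conditions. The authors deposited FPKM per gene in 1 table. The submitters' processing notes name Bowtie 0.12.9, Cufflinks 2.1.1, HTSeq, DESeq2 and mm10, a mouse build, with no role or order, whereas the table holds human Ensembl identifiers. The human build, the annotation and the strand setting of the counting are not given in the sources used here. Positions and exon lengths come from GENCODE release 29 (GRCh38), which lists 40169 of the 43876 identifiers.

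Tests used limma 3.58.1 in R 4.3.3 on log2(FPKM + 1), two-sided, over all 12 libraries with 1 mean per condition, the trend option on, and p-values adjusted by Benjamini-Hochberg. Tested were 18574 genes, those that reached an FPKM of 1 or more in 3 libraries or more. The script was tested on simulated data. A fold change on this scale understates that of low genes, and an adjusted p under 0.05 counts as called. Members, lists and the split of replicate 1 from replicates 2 and 3 were chosen with earlier results of these data known. Fold changes are printed for pairs of a member and a comparison with an unadjusted p under 0.05, with or without the replicate block, or without overlap. The interaction of BCL2L11, BBC3 in Mito-Lipo against DMSO, BCL2A1 without the filter, FADD, ENDOG, PARP1, APAF1 and the list genes called over replicates 2 and 3 were added after their values were seen. From each list, the 2 genes with the smallest p in Com against DMSO are named, except for an item not reported here. FPKM steps gave each library's depth, 31721600 to 41330000 fragments. At that depth 79.6% to 80.2% of low genes came out as whole fragments within 0.1 of a fragment at their annotated lengths, so fragment numbers of the members are approximate. Those of BCL2A1 rest on an inferred length of 809 nt, the shortest at which its 12 values come out whole, in place of its annotated exon length of 1089 nt. Intervals and limits on fragments cover counting error only.

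Replicate numbers were used to pair the libraries. After subtracting condition means, r was 0.165 to 0.657 over the 18 pairs of libraries that share a number. Pairs with different numbers were not computed, and replicate 1 stands apart from both other numbers. These r therefore cannot show whether replicates 2 and 3 are paired by number. No source used here says what a number stands for. Alternatives were the replicate block, replicates 2 and 3 only, each library left out in turn, only the 6 libraries compared, a pseudocount of 0.1, no filter, a mean FPKM of at least 5, and median-ratio scaling.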

Additional observations from a re-analysis of the deposited data

How the results depend on the processing

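The count of members called was 0 in each of the 6 comparisons of conditions and in the interaction under every alternative except replicates 2 and 3 only. Over those 8 libraries it was 2 in Mito-Lipo against DMSO, 2 in Com against Mito-Lipo and 3 in Gilteritinib against Mito-Lipo. With the replicate block, which pairs libraries by number, it was 0 in each of these. The smallest adjusted p of a member in that limma fit was that of BCL2L11 in Gilteritinib against Mito-Lipo, 0.0554, and that of BCL2L11 in Mito-Lipo against DMSO was 0.0998. No log2 difference of the 15 pairs named changed direction under any alternative. The 7 that passed the threshold did so with replicates 2 and 3 only. Without replicate 1 of Mito-Lipo, the log2 difference of BAX from DMSO was 0.06 in place of 0.24. Other log2 differences, none of them called over the 12 libraries, also moved by over 1.5 times when 1 library was left out. In Com against Gilteritinib, BBC3 went from 0.39 to 0.08 without replicate 1 of Com, and MCL1 from 0.10 to 0.06 without replicate 3 of Com. In Com against Mito-Lipo, MCL1 went from -0.18 to -0.30 and -0.10 without replicates 1 and 2 of Mito-Lipo. In Gilteritinib against Mito-Lipo, BBC3 went from -0.59 to -0.28 and BID from 0.11 to 0.18 without replicate 1 of Mito-Lipo, PMAIP1 from -0.30 to -0.52 and -0.15 without replicates 1 and 2 of Mito-Lipo, and BCL2L11 from -0.60 to -0.38 and BID to 0.05 without replicate 1 of Gilteritinib. Between replicate 1 and the others, the number of members called was 4 to 7 when a library was left out. With each class taken as the mean of log2(FPKM + 1) in place of summed FPKM, so that low genes weigh as much as BCL2, the log2 ratio of BH3-only to anti-apoptotic genes moved from -1.41, -1.27, -1.39 and -1.32 in DMSO, Mito-Lipo, Gilteritinib and Com to 0.0743, 0.0632, 0.0246 and 0.12. That of effectors to anti-apoptotic genes moved from -1.03, -0.90, -0.97 and -0.81 to 1.09, 1.0005, 1.18 and 1.23. All 8 ratios changed sign, and that of Mito-Lipo fell below that of DMSO for both. BCL2A1, which did not pass the filter, enters the anti-apoptotic mean here, and the ratios without it were not computed. The 95% interval of BBC3 in Com against DMSO was -0.51 to 0.83 over 12 libraries, -0.23 to 0.55 with the replicate block, and -0.40 to 0.16 over replicates 2 and 3 only.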
